A study of Mus musculus with 6 samples.

Results

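The S set of this CUT&Tag experiment held 3 libraries of primary mouse cardiac fibroblasts, with 1 library each for NC, for TGF-b alone and for an siRNA given together with TGF-b. CUT&Tag uses an antibody to bring a transposase to chromatin, so that sequenced fragments mark where the bound protein sat. The comparison described here set the siRNA library against the NC library and asked which regions and genes differed from NC, and which returned to the NC level, once the siRNA had been given with TGF-b. The deposited tables of the S set compared TGF-b with NC over 52723 regions and siRNA with TGF-b over 52579 regions. Regions of both tables that overlapped by at least 1 bp were joined, mitochondrial regions left out, which gave 26926 joined regions of the 456310 regions that the 4 tables of the series list. The ratio of siRNA to NC was the ratio of TGF-b to NC from the first table multiplied by the ratio of siRNA to TGF-b from the second. The sample labels call the siRNA SiSRF, whereas the study describes siRNA against Piezo2 or a scrambled control before TGF-b, so its target is not stated further. The study names antibodies against SRF and TAZ, and taking S for SRF is an inference that these data do not check. The series' design text speaks of a Tet3 knockout by Cre, which no sample label of these libraries mentions. The labels do not spell out NC. The libraries are of bulk chromatin, in which fewer cells with a bound region and less binding per cell cannot be told apart. No treatment was replicated, so no test was possible: all counts, shares and ratios below describe 3 libraries. The 95% intervals of single regions cover counting error only, and those of medians and shares describe the spread over regions of the same libraries, taken as independent, with no error between samples.

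SRF is a transcription factor that binds the CArG box and works with the actin-regulated MRTF coactivators and the ETS-type ternary complex factors. Through MRTF it switches on genes of the contractile cytoskeleton, and through the ternary complex factors it switches on immediate early genes. TGF-b drives cardiac fibroblasts to become myofibroblasts, contractile cells that lay down matrix, and SRF with MRTF is known to carry part of that program. Piezo2 is a cation channel opened by mechanical force.

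Depth was low. Over joined regions the NC library had a median of 5 reads a region (quartiles 3 and 9), the TGF-b library 13 (10 and 18) and the siRNA library 5 (3 and 10), and reads over all joined regions summed to 269593, 477780 and 286799. In 13127 joined regions (48.8%) NC or siRNA had 3 reads or fewer, and in 4506 (16.7%) both did, so single regions at that depth carry little information on their own. The 27 regions with 500 or more reads in a library held 28.4% of the NC reads and 22.6% of the siRNA reads, and 6 of them had an assigned gene. Chromatin association does not measure transcripts, so neither the knockdown nor the cell type could be checked; of the markers fixed for this purpose, 4 of 9 fibroblast genes had 6 joined regions, 2 of 9 cardiomyocyte genes had 8, 4 of 7 endothelial genes had 5, 1 of 6 macrophage genes had 2 and 5 of 7 mural cell genes had 6.

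Most joined regions entered the set through a peak call in the TGF-b library, so a TGF-b value above the other libraries was largely fixed by the join and is given here as a description. The TGF-b library exceeded NC by 2-fold or more in 9108 joined regions (33.8% of 26926) and fell short of it by 2-fold or more in 766 (2.84%). These counts moved with the scaling, to 16409 and 241 without the authors' normalization lines and to 4383 and 3196 with each ratio centred on its median. With siRNA, 2823 regions (10.5%) were at least 2-fold higher than NC, 8063 (29.9%) were at least 2-fold lower and 16040 (59.6%) lay within 2-fold. The median log2 ratio was 0.61 for TGF-b over NC, -1.04 for siRNA over TGF-b and -0.46 for siRNA over NC. The excess of lower over higher regions moved with the authors' normalization: their lines shift the ratio of siRNA to NC by a median of -0.47 on the log2 scale, and the median log2 ratio of the reads themselves was 0.00, with 6055 regions higher and 5392 lower. Whether siRNA as a whole lay below NC or level with it therefore cannot be told from these tables, and the comparisons that follow are between groups of regions within the same libraries.

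Few regions were shared between the calls of any 2 S set libraries. The 1728 joined regions called in both were 6.17% of the 27986 regions called in NC (5.9% to 6.46%) and 6.01% of the 28738 called in siRNA (5.74% to 6.29%). Of the regions called in TGF-b, 4.46% were also called in NC and 7.92% in siRNA. Most joined regions, 23383, had been called in the TGF-b library alone, so that a high TGF-b read number was their condition for entry. Their median reads were 5, 12 and 5 in the NC, TGF-b and siRNA libraries. A smaller class of 1354 regions was called in TGF-b and siRNA and missed in NC. Median reads there were 9, 22 and 21, the median log2 ratio of siRNA over NC was 0.72 (0.67 to 0.77), a direction that their calls fix. Of these regions 70.9% lay within 3 kb of a transcription start site (TSS), against 13.2% of those called in TGF-b alone. The 461 regions called in NC and TGF-b and lost with siRNA had median reads of 12, 16 and 8, and 21.5% of them lay within 3 kb of a TSS. Regions outside the join, called in 1 of the other libraries alone, differed in the same way: 3262 of the 25645 called in siRNA alone (12.7%) were within 1 kb of a TSS, against 1482 of the 25786 called in NC alone (5.75%).

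The ratio of siRNA to NC differed with distance from a TSS. The 3764 joined regions within 1 kb of a TSS had median reads of 9, 20 and 16 in that order of libraries. Their median log2 ratio of siRNA over NC was 0.31 (95% rank interval 0.28 to 0.35), and 20.5% of them were at least 2-fold higher than NC while 9.33% were at least 2-fold lower. At 1 to 3 kb, in 1159 regions, median reads were 5, 13 and 5 and the median log2 ratio was -0.45. It was -0.46 at 3 to 10 kb, -0.47 at 10 to 50 kb, -0.49 over 50 kb and -0.48 in the 12838 regions with no assigned gene. Over all depths together, the median log2 ratio of TGF-b over NC differed by 0.02 between regions within 1 kb and regions beyond 3 kb or without a gene. The same difference was 0.87 for siRNA over TGF-b and 0.79 for siRNA over NC. In the reads alone, with no normalization line, the difference for siRNA over NC was 0.81. By annotation, promoter regions (2659, median log2 ratio 0.33) and 5' UTR regions (591, 0.31) stood apart from introns (9217, -0.47), exons (999, -0.25) and 3' UTR regions (313, -0.47).

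**Figure D1:**
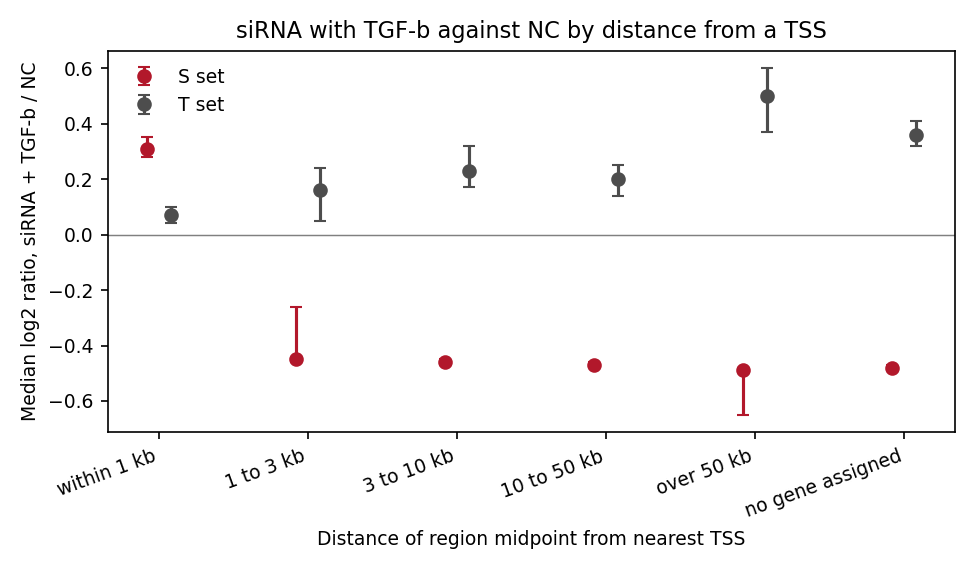
Median log2 ratio of the siRNA library over NC (vertical axis) by distance of the region from the nearest TSS, for the S set (red) and the T set (grey), with 95% rank intervals over regions. In the S set the class within 1 kb sits at 0.31 and every other class between -0.49 and -0.45, while in the T set the class within 1 kb is the lowest at 0.07.

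Regions near a TSS held more reads, so the comparison was repeated among regions with like reads in the TGF-b library. With 8 to 10 TGF-b reads, the median log2 ratio of siRNA over NC was -0.07 (-0.24 to 0.06) within 1 kb and -0.47 beyond 3 kb or without a gene. With 20 to 29 reads it was 0.40 (0.33 to 0.48) in 1137 near regions and -0.49 (-0.49 to -0.48) in 2337 far ones, where median reads were 9, 24 and 18 against 8, 22 and 8 in NC, TGF-b and siRNA. With 30 to 49 reads the values were 0.55 and -0.49. In the bins from 8 to 49 reads, the median NC reads of near and far regions were at most 1 read apart, and the siRNA reads were higher near a TSS. The near median was the higher one on each of the 20 chromosomes with at least 20 near regions by at least 0.70. Among regions called in the TGF-b library alone the difference was smaller, 0.03 near against -0.47 far. TGF-b over NC was not level between near and far regions at like reads. Its near median was lower at 8 to 10 reads, 0.29 against 0.55 far, and at 11 to 14, 0.33 against 0.64. It was also lower at 15 to 19 reads, 0.59 against 0.75, and at 20 to 29, 0.67 against 0.82. It was higher at 30 to 49 reads, 0.82 against 0.74 with overlapping rank intervals, and in the deepest bin, 0.82 against 0.12.

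**Figure D2:**
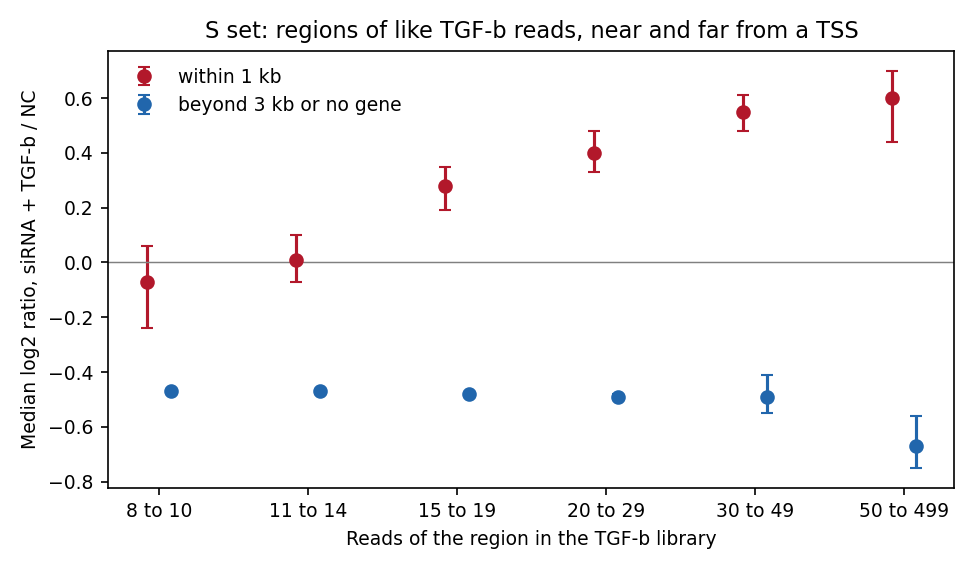
Median log2 ratio of the siRNA library over NC (vertical axis) for S set regions binned by their reads in the TGF-b library (horizontal axis), within 1 kb of a TSS (red) and beyond 3 kb or without a gene (blue), with 95% rank intervals. The near regions go from -0.07 at 8 to 10 reads to 0.60 in the deepest bin, and the far regions lie between -0.67 and -0.47 in every bin.

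Of the 9108 regions where TGF-b exceeded NC by 2-fold or more, here called raised, 5581 (61.3%, 60.3% to 62.3%) were back within 2-fold of NC with siRNA, 2456 (27%) were still at least 2-fold above NC and 1071 (11.8%) were at least 2-fold below it. Of the 1229 such regions within 1 kb of a TSS, 623 (50.7%) were back and 566 (46.1%, 43.3% to 48.8%) still above, at 559 genes. Of the 7419 beyond 3 kb or without a gene, 4666 (62.9%) were back and 1775 (23.9%, 23% to 24.9%) still above. When a change was counted by whether the 95% counting interval of a region excluded 0 in place of the 2-fold threshold, a choice made after seeing the data, the share still above NC was 40.3% near (446 of 1108) and 8.48% far (387 of 4565). With reads of 3 or fewer set to 3 it was 39.8% near and 5.72% far, so many far regions counted as kept had 3 reads or fewer in NC or siRNA. Of the 7419 far raised regions 7296 had been called in the TGF-b library alone, and of the 1229 near ones 832. A high TGF-b count was thus their condition for entry, so the share that was back is a description of these regions and no measure of an siRNA effect. Among the raised regions called in TGF-b alone, 33.5% near and 23.5% far were still above NC.

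**Figure D3:**
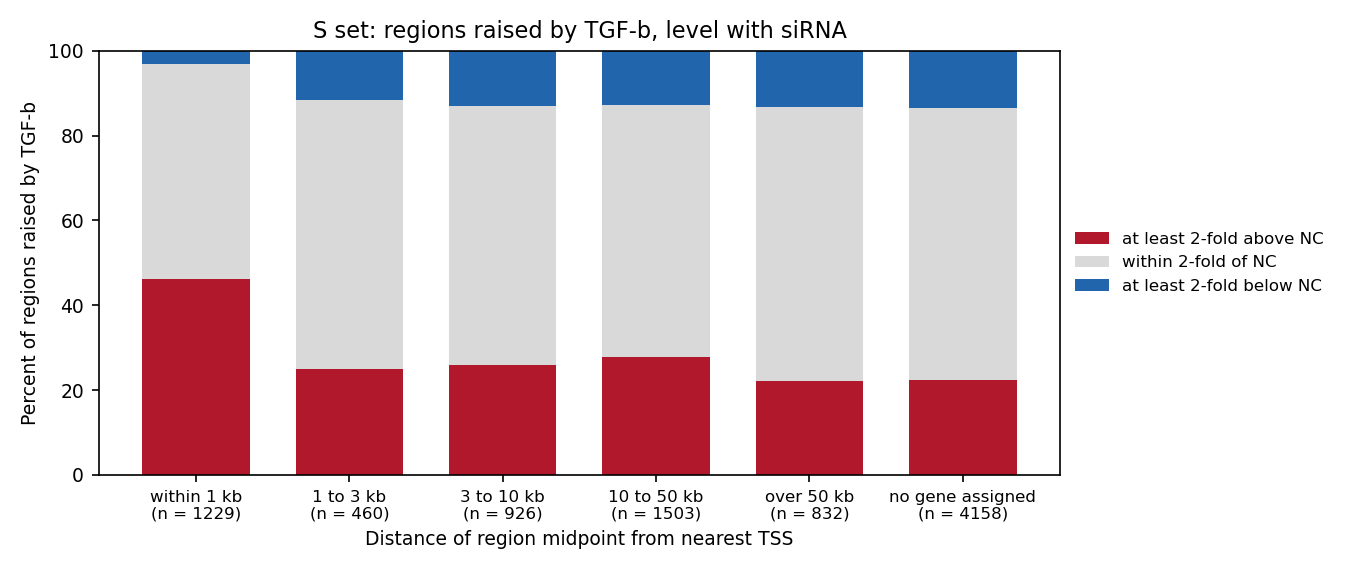
Share of the S set regions raised in TGF-b by 2-fold or more over NC (vertical axis, percent) that were at least 2-fold above NC (red), within 2-fold of NC (grey) or at least 2-fold below NC (blue) with siRNA, by distance from the nearest TSS; n is the number of raised regions in each class. The red share is 46.1% within 1 kb and between 22.2% and 27.7% in the other classes.

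Of the 766 regions at least 2-fold lower in TGF-b than in NC, 401 (52.3%, 48.8% to 55.9%) were back within 2-fold of NC with siRNA, 364 (47.5%) were still at least 2-fold below and 1 was at least 2-fold above. Within 1 kb of a TSS, 54 of 70 (77.1%, 66% to 85.4%) were back, and beyond 3 kb or without a gene 326 of 657 (49.6%, 45.8% to 53.4%). A region missed in TGF-b entered the join through calls in both NC and siRNA, as 404 of the 766 (52.7%) and 51 of the 70 near a TSS (72.9%) did, so these shares were largely set by the join. They also moved with the authors' lines, without which 241 regions counted as lowered and 84.6% of those were back. Of the 17052 regions within 2-fold of NC under TGF-b, 6628 (38.9%) were at least 2-fold below NC with siRNA and 366 (2.15%) at least 2-fold above, 205 of the 366 within 1 kb of a TSS.

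The sequences upstream of 9 of the genes described below are given first, to show what kind of promoter stood on each side. Each is the stretch of 250 bases before the annotated start, in the direction of transcription, from the RefSeq promoter table of build GRCm38.p6; the regions of the CUT&Tag tables are in GRCm39 coordinates. Capitals mark the CArG box and the motifs CCGGAAG (the core bound by ETS factors), CCAAT and GGGCGG (bound by SP and KLF factors), searched on both strands. Chordc1 (chr9:18292017-18292266, plus strand) and Sec23a (chr12:59012018-59012267, minus strand) stayed high with siRNA, as did Enkur (chr2:21205366-21205615, minus strand) and Unk (chr11:116030066-116030315, plus strand), which hold none of the marked motifs. Vcl (chr14:20929148-20929397, plus strand) is a textbook SRF target. 0610009L18Rik (chr11:120348428-120348677, plus strand) and Smad3 (chr9:63757995-63758244, minus strand) were high in TGF-b and back near NC with siRNA. Fmnl3 (chr15:99370483-99370732, minus strand) was low in TGF-b and back, and Gm17359 (chr3:79345121-79345370, plus strand) was without a read in the siRNA library.
Chordc1: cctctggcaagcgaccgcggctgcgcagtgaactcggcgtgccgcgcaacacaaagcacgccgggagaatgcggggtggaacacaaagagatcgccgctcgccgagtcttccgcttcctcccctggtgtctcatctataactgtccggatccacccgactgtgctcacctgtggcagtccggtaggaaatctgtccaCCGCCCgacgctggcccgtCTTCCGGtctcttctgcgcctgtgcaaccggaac
Sec23a: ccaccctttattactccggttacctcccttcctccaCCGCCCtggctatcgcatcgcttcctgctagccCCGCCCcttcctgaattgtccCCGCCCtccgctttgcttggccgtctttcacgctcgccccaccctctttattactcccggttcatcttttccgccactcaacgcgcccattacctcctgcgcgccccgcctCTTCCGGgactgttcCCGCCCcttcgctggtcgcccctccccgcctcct
Enkur: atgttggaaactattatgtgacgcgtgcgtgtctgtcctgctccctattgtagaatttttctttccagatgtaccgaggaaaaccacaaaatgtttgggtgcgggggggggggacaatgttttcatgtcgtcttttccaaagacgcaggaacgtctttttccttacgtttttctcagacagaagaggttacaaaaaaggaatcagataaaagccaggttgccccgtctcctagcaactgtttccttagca
Unk: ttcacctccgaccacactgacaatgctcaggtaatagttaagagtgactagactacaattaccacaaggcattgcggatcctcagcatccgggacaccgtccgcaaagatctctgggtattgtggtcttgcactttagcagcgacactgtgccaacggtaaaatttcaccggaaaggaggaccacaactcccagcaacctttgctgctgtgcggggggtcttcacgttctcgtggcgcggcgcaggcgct
Vcl: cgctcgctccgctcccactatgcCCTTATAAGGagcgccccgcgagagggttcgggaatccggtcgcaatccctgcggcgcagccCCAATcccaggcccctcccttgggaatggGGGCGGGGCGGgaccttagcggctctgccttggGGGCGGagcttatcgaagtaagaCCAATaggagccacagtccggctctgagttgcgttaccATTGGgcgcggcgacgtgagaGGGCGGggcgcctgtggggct
0610009L18Rik: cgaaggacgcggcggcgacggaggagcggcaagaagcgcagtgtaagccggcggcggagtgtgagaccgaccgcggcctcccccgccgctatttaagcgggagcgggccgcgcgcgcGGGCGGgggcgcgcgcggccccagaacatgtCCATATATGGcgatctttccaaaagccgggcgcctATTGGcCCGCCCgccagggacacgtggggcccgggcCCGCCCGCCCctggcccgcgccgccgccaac
Smad3: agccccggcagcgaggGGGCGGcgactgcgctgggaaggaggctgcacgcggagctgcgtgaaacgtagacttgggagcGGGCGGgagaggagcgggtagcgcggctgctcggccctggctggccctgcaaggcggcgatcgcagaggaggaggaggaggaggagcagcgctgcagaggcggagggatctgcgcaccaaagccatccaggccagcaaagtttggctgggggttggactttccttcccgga
Fmnl3: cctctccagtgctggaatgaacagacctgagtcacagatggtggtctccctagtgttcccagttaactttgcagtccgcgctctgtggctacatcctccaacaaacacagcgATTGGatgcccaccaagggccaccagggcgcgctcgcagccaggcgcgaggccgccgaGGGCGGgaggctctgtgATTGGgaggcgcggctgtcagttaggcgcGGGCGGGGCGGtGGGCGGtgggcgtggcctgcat
Gm17359: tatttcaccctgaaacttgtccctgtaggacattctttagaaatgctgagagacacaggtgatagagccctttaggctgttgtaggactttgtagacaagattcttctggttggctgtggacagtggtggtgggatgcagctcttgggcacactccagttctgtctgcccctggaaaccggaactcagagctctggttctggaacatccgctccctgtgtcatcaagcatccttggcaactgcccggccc

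The promoter regions highest over NC with siRNA, by the lower bound of the counting interval, lay at Gm16283, Chordc1, Ak5, Med1, BC025920 and Spidr. At Chordc1, a co-chaperone of HSP90 (ENSMUSG00000001774, chr9:18203262-18203644, 5' UTR), NC had 2 reads, TGF-b 37 and siRNA 41, and siRNA over NC was 3.25 on the log2 scale (1.89 to 5.71). At Med1, a Mediator subunit that links activators to RNA polymerase II (ENSMUSG00000018160, chr11:98083773-98083932, promoter), reads in the same order were 0, 12 and 20. With the NC library set to 3 reads, a setting and no lower bound, siRNA was 3.6-fold higher than NC there. At Ak5, an adenylate kinase, the reads were 0, 9 and 20, which is 3.61-fold by the same setting. Spidr, a scaffold of homologous recombination repair, had 1, 21 and 29 reads (log2 ratio 3.36, 1.77 to 6.85), BC025920 had 1, 14 and 29, and Gm16283 had 2, 23 and 43. In each of these 6 regions the siRNA library held more reads than the TGF-b library, and NC held 2 reads or fewer.

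The next 6 regions that were at least 2-fold above NC in both TGF-b and siRNA were at Enkur, Unk, Derl1, Ghitm, Sec23a and Hnrnph3. Sec23a, a subunit of the COPII coat that carries cargo from the endoplasmic reticulum (ENSMUSG00000020986, chr12:59058689-59059072, promoter), had 3 NC reads, 34 TGF-b reads and 40 siRNA reads, with siRNA over NC at 2.81 (1.58 to 4.80). Derl1, a channel component of endoplasmic reticulum quality control, had 1, 22 and 27 reads. Ghitm, a protein of the inner mitochondrial membrane (chr14:36857061-36857469, promoter), had 6, 37 and 61, with a log2 ratio of 2.59 (1.62 to 3.97). Hnrnph3, a splicing regulator, had 5, 33 and 51, with 2.57 (1.52 to 4.08). Unk, an RNA-binding protein, had 0, 27 and 18 reads, and Enkur, a protein of cilia, had 0, 22 and 18. With NC set to 3 reads, siRNA was 3.24-fold and 3.25-fold higher than NC. At Unk and Enkur siRNA lay between NC and TGF-b in reads, and at the other 4 it exceeded TGF-b. The 6 regions lay 36 to 140 bases from a TSS.

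**Figure D4:**
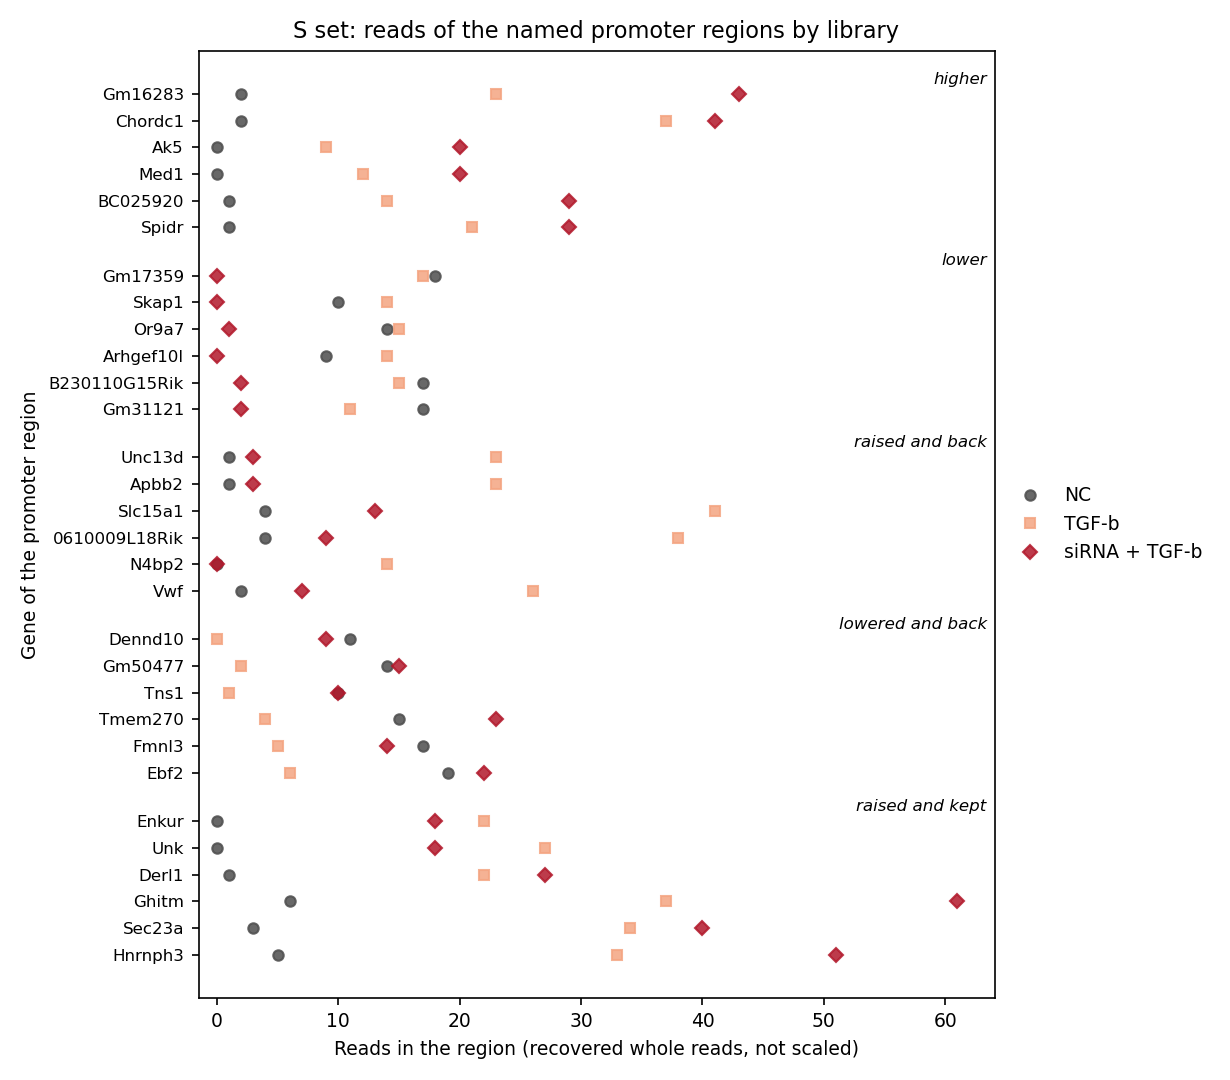
Reads of the 30 named promoter regions (vertical axis, gene symbols, grouped by class) in the NC (grey circles), TGF-b (orange squares) and siRNA (red diamonds) libraries; the horizontal axis is whole reads, not scaled for depth. In the classes higher and raised and kept, NC lies at 0 to 6 reads and siRNA at 18 to 61; in the class raised and back, siRNA lies at 0 to 13 beside TGF-b at 14 to 41.

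The 6 promoter regions named for the lowest siRNA values against NC each held fewer than 20 reads in each library. Gm17359 (chr3:79243475-79243676, promoter) had 18 NC reads, 17 TGF-b reads and no siRNA read, 6.26-fold lower than NC with the siRNA library set to 3 reads. By the same setting Skap1, an adaptor of T cell signalling, with 10, 14 and 0 reads, was 3.65-fold lower. Arhgef10l, with 9, 14 and 0, was 3.32-fold lower. Or9a7, an olfactory receptor, had 14, 15 and 1 (log2 ratio -3.33, -6.80 to -1.66). B230110G15Rik and Gm31121 each had 17 reads in NC and 2 in siRNA. TGF-b was within 2-fold of NC in these regions but Gm31121 (17 and 11 reads, log2 ratio -1.15), and siRNA held fewer reads than both other libraries in each.

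Regions that were high in TGF-b and back at the NC level were led by Unc13d, Apbb2, Slc15a1, 0610009L18Rik, N4bp2 and Vwf. Slc15a1, a peptide transporter (ENSMUSG00000025557, chr14:121742640-121742855, promoter), had 4 NC reads, 41 TGF-b reads and 13 siRNA reads: TGF-b over NC was 2.51 on the log2 scale (1.37 to 4.22) and siRNA over NC 0.97 (-0.36 to 2.73), just inside the 2-fold limit. 0610009L18Rik (chr11:120241171-120241385) had 4, 38 and 9, with 2.40 (1.26 to 4.11) and 0.50 (-0.95 to 2.28). Unc13d, needed for granule release, and Apbb2, a binding partner of the amyloid precursor protein, each had 1, 23 and 3 reads. Vwf, the endothelial clotting factor, had 2, 26 and 7. N4bp2 had 0, 14 and 0 reads, so no fold of siRNA over NC can be given. In these 6 regions the siRNA reads were between 0 and 13, and in 5 of them they were above the NC reads. In the reads alone, without the authors' lines, those 5 stood at 2-fold or more above NC, up to 1.49 on the log2 scale at Slc15a1 and 1.42 at Vwf, so their return to within 2-fold rests on the lines.

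The opposite course, low in TGF-b and back with siRNA, was seen at Dennd10, Gm50477, Tns1, Tmem270, Fmnl3 and Ebf2, each called in NC and siRNA and missed in TGF-b. Tns1, a tensin that ties integrins to actin (ENSMUSG00000055322, chr1:74160984-74161103, intron), had 10 NC reads, 1 TGF-b read and 10 siRNA reads. Fmnl3, an actin-nucleating formin (chr15:99268404-99268571, promoter), had 17, 5 and 14, with log2 ratios of -2.16 (-3.73 to -0.96) for TGF-b over NC and -0.73 (-1.75 to 0.25) for siRNA over NC. Ebf2, a transcription factor of mesenchymal and adipocyte precursors, had 19, 6 and 22, with -2.09 (-3.52 to -0.95) and -0.28 (-1.14 to 0.60). Dennd10 had 11, 0 and 9 reads, Gm50477 14, 2 and 15, and Tmem270 15, 4 and 23. In each of these regions both NC and siRNA held at least 9 reads and TGF-b held 6 or fewer, which the calls that admitted them to the join largely fix.

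Regions away from promoters were named by the same rule. The 4 regions highest over NC with siRNA had no NC read and 16 or 17 siRNA reads, 2 of them in introns of Gm32702 and Gm28077 and 2 without a gene. The lowest were at chr4:156183923-156184087 (18, 17 and 0 reads), chr9:30172447-30172609 (16, 19 and 0), an intron of Osbp2 (16, 16 and 0) and an intron of Slc30a8, a zinc transporter of insulin-secreting cells (23, 11 and 1). Of the regions high in TGF-b and back, chr5:115565429-115565603 had 1, 31 and 4 reads and an exon of Gm10532 had 1, 31 and 3. Of the regions low in TGF-b and back, an intron of Mdga2, a neuronal adhesion gene, had 17, 0 and 13 reads. The scaffold region JH584304.1, with 117, 38 and 97 reads, was the deepest one named; its log2 ratio of siRNA over NC was -0.78 (-1.17 to -0.40), and -0.27 in the reads alone.

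Of the 26 genes fixed by name for their roles in this pathway, 7 had a joined region, and none of these was 2-fold from NC with siRNA or had a counting interval that excluded 0. Over all 4608 promoter genes 68.7% lay within 2-fold, 757 had an interval above 0 and 320 one below. Over all joined regions 4.69% had an interval above 0 and 15.8% one below. Of the 7 regions 5 were promoter regions, and the 0 of 7 is to be read against these values. Vcl, which encodes the focal adhesion protein vinculin (ENSMUSG00000021823, chr14:20979081-20979377, promoter), was called in all 3 libraries with 13 NC reads, 29 TGF-b reads and 20 siRNA reads, which put siRNA over NC at 0.08 (-0.87 to 1.11). Tgfbr1, the type I TGF-b receptor, had 12, 29 and 16 reads (-0.11, -1.14 to 0.97). Smad3, a signal transducer of that receptor (chr9:63665405-63665557, promoter), had 3, 24 and 8, with TGF-b over NC at 2.07 (0.78 to 4.06) and siRNA over NC at 0.67 (-0.88 to 2.71). The promoter region of Piezo2 (chr18:63187190-63187336) had 2, 20 and 4, with 2.22 (0.79 to 4.68) and 0.25 (-1.71 to 2.74). At Smad3 and Piezo2 NC and siRNA each held 8 reads or fewer, beside at least 20 in TGF-b. For Smad3 siRNA over NC was past 2-fold in the reads alone (1.17) and with all ratios centred on their median (1.13). Piezo2 had a further promoter region called in NC alone. Mrtfb had 8, 13 and 8 reads at its promoter, Mrtfa 3, 11 and 3 in an intron, and the region nearest Srf, in an intron 23308 bases from its TSS, 7, 11 and 9. Mrtfa and Mrtfb each also had a promoter region called in siRNA alone.

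The other 19 genes had no region in the join, and 10 of them, Tagln, Myl9, Tpm1 and Flna included, had no S set region at all. Among those with a region called in siRNA alone was Acta2, smooth muscle actin and the usual myofibroblast marker, with 17 reads in siRNA and 7 in TGF-b at chr19:34233304-34233439, 381 bases from the TSS. Ankrd1, a stretch-induced nuclear cofactor, had 28 and 17 reads at its promoter, Yap1 14 and 19 in an exon 76 bases from its TSS, and Junb, an AP-1 subunit, 20 and 5. Postn, the matrix protein periostin, had 3 intronic regions called in siRNA alone, with 11, 13 and 12 reads in siRNA beside 4, 4 and 2 in TGF-b. Regions called in NC alone were found at Col1a1, the main fibrillar collagen (11 reads in NC, 6 in TGF-b), and Fn1, fibronectin (9 and 2). Postn and Yap1 each had 1 such region as well, with 5 reads in NC and 0 in TGF-b in an exon of Postn, and 4 and 0 in an intron of Yap1 11148 bases from the TSS. NC reads at the first group and siRNA reads at the second were not analysed here, because the tables that hold these regions do not carry them. All these regions were called in siRNA or NC and missed in TGF-b, so more reads than in TGF-b were largely fixed by the calls. The reads given are not scaled between libraries, and they describe no gain or loss with siRNA. Over all genes, 4276 had a promoter region called in siRNA alone and 2642 one called in NC alone.

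Gene lists were scored by 1 promoter region per gene, within 3 kb of a TSS, and read against all 4608 genes with such a region, of which 851 (18.5%) were at least 2-fold higher than NC with siRNA and 590 (12.8%) at least 2-fold lower; the median over these genes was 0.21 on the log2 scale (0.17 to 0.25). Of 44 SRF and MRTF targets of the cytoskeleton, 12 had a promoter region; 2 were higher, 2 lower, and the median was -0.12. The authors' lines shift the ratio by a median of -0.47, so the sign of this list median rests on them. Myh9, non-muscle myosin, had 7 NC reads, 28 TGF-b reads and 37 siRNA reads (1.72, 0.73 to 3.01), while Fhl2, a LIM-domain cofactor, had 21, 23 and 14 (-1.03, -2.02 to -0.11) and Zyx, the focal adhesion protein zyxin, 24, 46 and 36 (0.05, -0.67 to 0.81). Capzb, which caps actin filaments, had 0, 13 and 5 reads, which is 1.06-fold with NC set to 3 reads and leaves 1 gene of the list higher. Myh11, smooth muscle myosin, had 6, 7 and 0, which is 2.32-fold lower with siRNA set to 3 reads. Immediate early genes, the other arm of SRF, had a joined promoter region at 2 of 33 genes, Fosl2 (6, 22 and 12 reads) and Nr4a2 (3, 11 and 10), both within 2-fold of NC. Outside the join, 9 immediate early genes had a promoter region called in siRNA alone, Fosb, Junb, Atf3 and Dusp6 among them, and 2 had one called in NC alone, beside the 4276 and 2642 of all genes. The same 2 counts were 8 and 5 for cytoskeletal targets, 5 and 5 for cofactors and 3 and 4 for the TGF-b pathway. Matrix genes gave 7 and 4, YAP and TAZ targets 7 and 3, and mechanosensitive channels 1 and 4. Cell cycle genes gave 7 and 2, chaperones 4 and 1, and chemosensory receptors 83 and 98. The number of annotated genes is not given, so these counts carry no share of all genes.

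Among the SRF cofactors and the actin regulators that feed them, 5 of 6 promoter regions had a value above 0, beside 2732 of the 4608 promoter genes of the set (59.3%). Of 6 genes of the cofactor list with a promoter region, 3 were at least 2-fold higher, none lower, and the median was 1.08. All 6 regions lay within 1 kb of a TSS, where the median of joined regions was 0.31. Rhoa, the GTPase that drives actin assembly, had 5, 22 and 22 reads (1.42, 0.27 to 2.97), Diaph1, the formin it activates, 8, 11 and 33 (1.40, 0.44 to 2.62) and Gata4, a cardiac factor that partners SRF, 2, 9 and 13 (1.71, 0.21 to 4.18). Actr3 (20, 37 and 30), Diaph3 (9, 25 and 23) and the coactivator Mrtfb (8, 13 and 8, -0.48) were within 2-fold, Mrtfb below NC. Outside the join, Mrtfb had a promoter region called in siRNA alone and Actr3 one called in NC alone. Over all joined regions of the genes of the cofactor list the median was 0.05, below that of its promoter regions.

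All 10 TGF-b pathway genes with a promoter region were within 2-fold of NC with siRNA, as were 68.7% of all promoter genes, and 5 of them were at least 2-fold higher in TGF-b, as were 33.9% of all. Their median was 0.94 for TGF-b over NC and 0.58 for siRNA over NC, the latter above the 0.21 of all promoter genes and the 0.31 of joined regions within 1 kb of a TSS. Besides Smad3, these were Ltbp3 (3, 21 and 8 reads) and Ltbp2 (3, 19 and 7), which bind latent TGF-b in the matrix, the kinase Map3k7 (7, 25 and 17) and the ubiquitin ligase Smurf1 (3, 15 and 10). Smad2, another transducer, held most reads in siRNA, with 15, 21 and 40 reads (0.84, 0.05 to 1.74). In the reads alone the median of the list was 1.08. Of 5 myofibroblast and matrix genes, P4ha1 (6, 26 and 21) and P4ha2 (6, 20 and 24), alpha subunits of the enzyme that hydroxylates collagen proline, were higher, Fbn2 (9, 5 and 3) lower, and Mmp2 (1, 15 and 2) and Col5a1 (4, 21 and 6) back; the median was 0.11. YAP and TAZ targets gave 1 higher, Tead1, the DNA-binding partner itself (1, 6 and 8, and 1.59-fold with reads of 3 or fewer set to 3, where the list has none higher), and 2 lower, Nt5e (9, 21 and 3) and Ajuba (11, 9 and 6), of 5. Nt5e also had a further promoter region called in siRNA alone. Among mechanosensitive channels 2 of 6 were lower, Trpv4 (9, 26 and 3 reads, -1.78, -3.81 to -0.27) and Trpm4 (17, 22 and 8, -1.47, -2.74 to -0.38), and Piezo1 was back (5, 24 and 6).

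**Figure D5:**
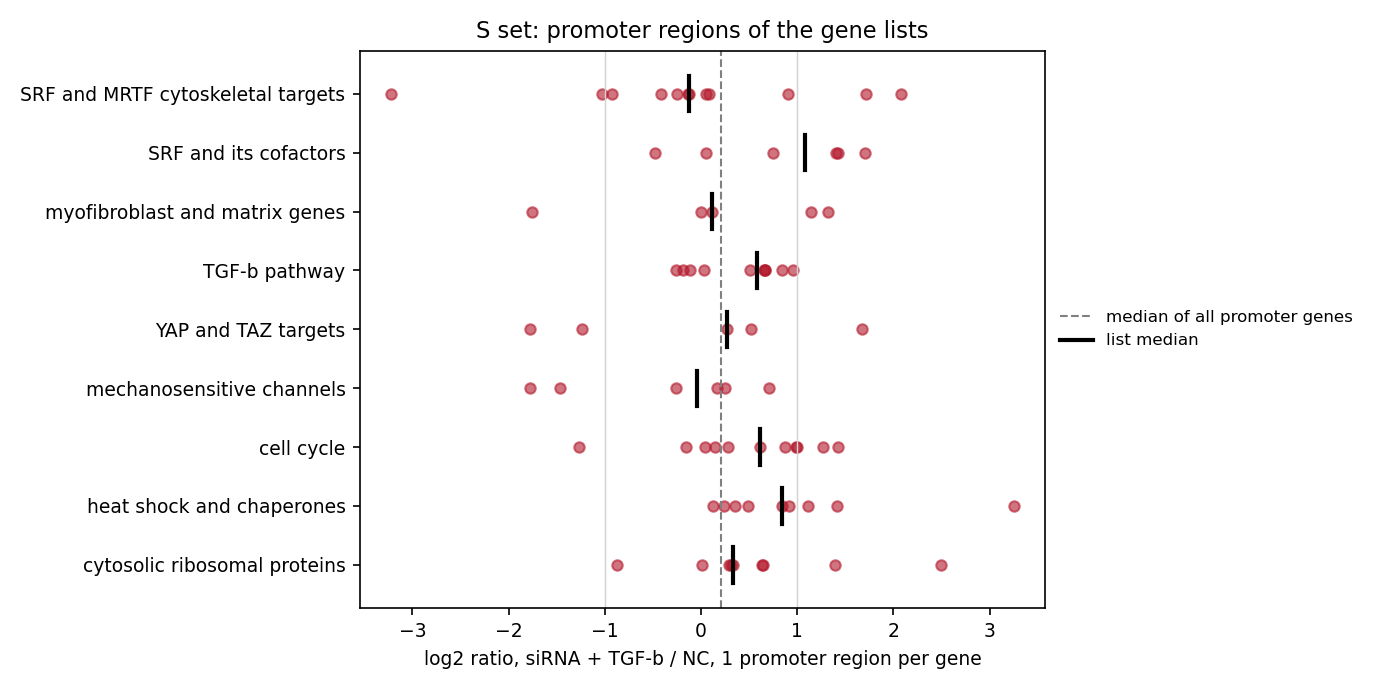
Log2 ratio of the siRNA library over NC (horizontal axis) for 1 promoter region per gene (red points) in 9 gene lists (vertical axis); black bars are list medians, the dashed line is the median of all 4608 promoter genes (0.21) and the grey lines mark 2-fold. The medians run from -0.12 for SRF and MRTF cytoskeletal targets to 1.08 for SRF and its cofactors; genes with no read in a library are placed with the 1 read that the authors added.

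The chaperone and cell cycle lists had medians above that of all promoter genes. All their promoter regions lay within 1 kb of a TSS, where joined regions had a median of 0.31 and 20.5% were at least 2-fold higher. Near regions with 20 to 29 and 30 to 49 TGF-b reads had medians of 0.40 and 0.55. The median TGF-b reads were 31 in the chaperone list and 23 in the cell cycle list. The part of distance and depth in these lists was not tested. Of 9 heat shock and chaperone genes, 3 were at least 2-fold higher, none lower, the lowest of the 9 was at 0.13 and the median was 0.84: next to Chordc1, Hsp90b1, the HSP90 of the endoplasmic reticulum, had 12, 31 and 49 reads (1.41, 0.60 to 2.39) and Stip1, an HSP70 to HSP90 adaptor, 9, 22 and 30 (1.11, 0.17 to 2.27). Of 11 cell cycle genes, 3 were higher and 1 lower, with a median of 0.61; Cdk4 had 10, 19 and 37 reads (1.27, 0.38 to 2.35) and Mki67, the proliferation marker Ki-67, 5, 25 and 22 (1.42, 0.27 to 2.97). Of 9 cytosolic ribosomal protein genes 2 were higher, Rps21 (3, 29 and 32 reads, 2.50, 1.25 to 4.49) and Rps19 (8, 31 and 33, 1.39, 0.43 to 2.61), and 15 ribosomal protein genes had a promoter region called in siRNA alone, against 3 in NC alone, where all genes gave 4276 and 2642. Chemosensory receptors, mostly olfactory receptor genes that fibroblasts are not known to use, went the other way: of 89 with a promoter region 33 were at least 2-fold lower and 11 higher, the median was -0.73, and median reads were 5, 13 and 5, like those of regions far from a TSS. With reads of 3 or fewer set to 3 the chemosensory median was -0.70, with 30 lower and 3 higher, and the medians of the cofactor, heat shock, cell cycle and ribosomal lists were 1.03, 0.84, 0.61 and 0.33. Under that setting the median of all promoter genes was 0.11.

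The promoter sequences were then compared across outcomes. Of 3618 genes with a joined region within 1 kb, 2109 had a single entry in the promoter table, and 64.6% of these held GGGCGG in the 250 upstream bases, against 32.4% of all 22862 promoters of that length. The share was 71.2% of 448 promoters at least 2-fold higher than NC with siRNA, 65.7% of 1487 within 2-fold and 37.9% of 174 at least 2-fold lower. Median GC content was 62.4%, 61.6% and 54.8% in these groups and 52% over all promoters. CCAAT was present in 45.3%, 43.9% and 32.8% (34.7% of all) and CCGGAAG in 16.1%, 11.6% and 10.3% (7.09% of all). TGANTCA, the AP-1 motif, was in 5.8%, 4.51% and 7.47% (6.96% of all), and GGAATG, the core of TEAD sites, in 10.5%, 11.2% and 14.4% (12.6% of all). The higher group was the most GC-rich. No motif marked an outcome gene by gene: of the printed promoters that stayed high, Chordc1 and Sec23a hold GGGCGG and CCGGAAG while Enkur (44.8% GC) and Unk (54% GC) hold none of the 4, like Gm17359 (52% GC) on the lower side. Vcl, Smad3, 0610009L18Rik and Fmnl3, all within 2-fold of NC, hold GGGCGG too. By GC content alone, the median log2 ratio of siRNA over NC was 0.02 (-0.16 to 0.18) at 262 promoters under 50% GC and 0.51 (0.40 to 0.61) at 344 with 70% or more; in the T set the same bins gave 0.01 and 0.04. GC content moved with the result in the S set, and its part in it was not tested.

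The CArG box was rare. It was found in 20 of the 2109 promoters (0.948%, against 1.38% of all), among them Vcl, 227 bases before the start, and 0610009L18Rik, 102 bases before it. In these 20 the median log2 ratio of TGF-b over NC was 1.17 (0.68 to 1.94), against 0.61 (0.57 to 0.66) in the 2089 without the motif, and 11 of the 20 were at least 2-fold higher in TGF-b (55% against 32.3%). With siRNA the median over NC was 0.35 (0.17 to 1.18), beside 0.34 (0.31 to 0.40). Of the 11 raised promoters 6 were back within 2-fold of NC and 5 still above, close to the 50.4% back and 46.4% still above among the 674 raised promoters without the motif. Lcn10 (4, 32 and 7 reads), Cbr2 (6, 29 and 11), Mknk2 (10, 36 and 20) and Alpk1 (3, 22 and 9) were on the returning side, and Arrdc4, an arrestin-domain gene (6, 45 and 50), Eif2s1, the alpha subunit of translation factor eIF2 (2, 25 and 22), and Ing2 (7, 34 and 25) on the other. In the T set, where 55 promoters with a joined region held the motif, TGF-b over NC was 0.52 (0.27 to 0.77) with it and 0.60 (0.57 to 0.63) without it. The motif's presence is a match of letters in this window.

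The T set, the companion libraries of the study, held NC, TGF-b alone and an siRNA with TGF-b, there labelled SiTAZ and not SiSRF. It gave 58627 joined regions by the same steps. Its median log2 ratio of siRNA over NC was 0.23 (0.21 to 0.26), with 15766 regions (26.9%) at least 2-fold higher and 14610 (24.9%) lower, beside -0.46, 10.5% and 29.9% in the S set. Of its 27355 regions at least 2-fold higher in TGF-b, 12993 (47.5%) were back and 12333 (45.1%) still above NC. Within 1 kb of a TSS its median was 0.07 and beyond 3 kb or without a gene 0.31, the reverse of the S set order over all depths, and the shares of raised regions still above NC were 45.4% near and 44.9% far. The near median minus the far median was 0.79 in the S set and -0.24 in the T set for siRNA over NC. For TGF-b over NC it was -0.33 in the T set and for siRNA over TGF-b 0.40, against 0.87 in the S set; differences of medians do not add up. At like TGF-b reads the T set near median was also the lower one in the shallowest bins, 0.30 against 0.45 far at 8 to 10 reads and 0.01 against 0.26 at 11 to 14, bins that hold 724 and 978 near regions and 10249 and 7266 far ones. The order turned from 15 reads up, with near against far medians of -0.03 and -0.06 at 15 to 19 reads, 0.01 and -0.21 at 20 to 29, 0.02 and -0.26 at 30 to 49, and 0.13 and -0.12 in the deepest bin. From 15 reads up a higher near than far value was thus seen in both sets, with the larger difference in the S set in each of these 4 bins, whereas below 15 reads the near value was the higher one in the S set and the lower one in the T set. The 95% rank intervals of the T set near and far medians overlapped at 8 to 10 and at 15 to 19 reads. With 1 library per treatment in each set, a difference between the sets and a difference between single libraries cannot be told apart. The siRNA labels differ between the sets too, and the antibodies are presumed to, which cannot be told apart either.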

How the data were processed

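CUT&Tag libraries of primary mouse cardiac fibroblasts were compared, 1 library per treatment. Per the study's methods, reads were aligned with Bowtie2 to GRCm39 and peaks were called; the tables name the library or libraries in which each region was called; the submitters' processing notes name BWA 0.7.12 and mm10, and scaffold names in the tables are those of GRCm39. The deposited tables, 2 per set, list merged peaks of a pair of libraries with the authors' normalized read density (a signal, rescaled between the 2 libraries by a fitted line), beside log2 ratios, mean log2 values and p-values. These hold the authors' comparison and were not used. Densities are reads plus 1 times 0.5, and whole reads were recovered from 99.98% of values (within 0.1 of a whole read). Spike-in reads were not used here.

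Regions of the 2 tables were joined at 1 bp of overlap, each first-table region once, and both log2 ratios were added. Counting intervals are 95% Wilson intervals of the share of the recovered reads in either library, as log2 ratios shifted by the lines; medians have rank intervals and shares Wilson intervals. A gene's promoter region was its region within 3 kb of a TSS with the highest mean signal. Named regions were, per class, the 6 promoter and 4 distal ones with the most extreme interval bound, plus 26 genes fixed by name. 1 gene list is not reported here. Members, lists and rules were chosen with earlier results of these data known. The calculations were tested on simulated data (Python 3.11.15, numpy 2.4.6, pandas 2.3.3, scipy 1.17.1). Alternatives were other scalings, thresholds, floors and region sets. The genome of the region coordinates was not used here; promoter sequences are RefSeq's of GRCm38.p6, matched by symbol.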

Additional observations from a re-analysis of the deposited data

Results flagged for a closer look

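The siRNA library over NC had medians of opposite sign in the 2 sets, on the log2 scale: -0.46 over 26926 regions of the S set and 0.23 over 58627 regions of the T set. The difference was not tested, since each set holds 1 library per treatment and the siRNA labels differ, SiSRF and SiTAZ. The order of the sets depends on the authors' lines. In the reads alone, the median was 0.00 in the S set and -0.32 in the T set.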

How the results depend on the processing

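The scale of the comparison rests on the authors' lines. The raised and lowered sets, 9108 and 766 regions as reported, were drawn anew under each setting, so shares back have different denominators: 16409 and 241 without the lines, 4383 and 3196 centred on the median, 13792 and 2022 at 1.5-fold, and 2474 and 95 at 4-fold. Without them 6055 regions were at least 2-fold higher than NC, the median log2 ratio was 0.00, 53.3% of raised and 84.6% of lowered regions were back, and raised regions still above NC were 59% near a TSS and 29.7% far. With 1 line fitted directly between NC and siRNA the median was -0.31, 58.3% and 58.9% were back, and 54.5% and 29.4% still above. Centred on the median, 4773 were higher and 4255 lower around 0.00, with 46.4% and 63.7% back. At 1.5-fold 4685 were higher, with 46.3% and 25.2% back; at 4-fold 486 were higher and 2450 lower, with 82.6% and 97.9% back. Regions above the median signal gave 1106 higher and 3147 lower, a median of -0.32, and 68.9% and 58.7% back. With at least 20 reads over 3 libraries there were 1701 higher and 4855 lower, a median of -0.37, 64.5% of raised regions back, a near to far difference of 0.83, and 21.6% of far raised regions still above. With 3 reads as the floor, 1129 were higher, 84.5% of raised regions were back, the difference was 0.74, and 39.8% near and 5.72% far were still above. A pseudocount of 0.1 gave 4274 higher, 48.2% back and a difference of 0.86. By the counting interval 1264 were higher and 4265 lower, 84.3% and 45.3% were back, and 40.3% near and 8.48% far were still above. Promoter regions alone gave 899 higher and 657 lower, with 54.2% and 68.8% back, and the median changed sign to 0.19. Among regions called in TGF-b alone the difference was 0.50. The near to far difference, the shares still above NC near and far, and all their alternatives were chosen after seeing the data. Of 265 alternatives for named regions, 263 stayed inside the region's counting interval, 2 fell outside it, and none of those for regions past 2-fold changed sign; of 57 for gene list medians, 54 moved by less than the SD over the list's genes and 3 by more.

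No paired analysis was possible because each treatment has 1 library and the labels carry no replicate numbers. With a median of 5 reads in NC and in siRNA, a 2-fold difference at a single region was mostly not detectable.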

Other observations

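Genes with a joined promoter region were also grouped by the KEGG classes that the tables carry. Of 36 classes with at least 30 such genes, 31 had a median log2 ratio of siRNA over NC above 0, as had all 4608 genes together, with a median of 0.21, 18.5% at least 2-fold higher and 12.8% lower. The highest was Translation, with 81 genes, a median of 0.63, and 26 at least 2-fold higher against 7 lower. Next was Folding, sorting and degradation, with 111 genes, a median of 0.61, and 31 higher against 2 lower. At the other end were Sensory system (116 genes, -0.48, 12 higher and 35 lower) and Signaling molecules and interaction (109 genes, -0.15, 12 and 24). Median reads in NC, TGF-b and siRNA were 8, 19 and 19 for Translation and 7, 14 and 5 for Sensory system. The share of genes whose region lay within 1 kb of a TSS was 90.1% for Translation and 59.5% for Sensory system, so the ends of the ordering differed in distance. Between them the order did not follow distance throughout. Replication and repair had 90% within 1 kb and a median of 0.20, and Cancer: specific types 79.6% and 0.49. The part of distance in the classes was not tested.

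The 27 regions with 500 or more reads in a library had a median log2 ratio of siRNA over NC of -0.85, from -1.01 to 0.25, and 1 of them was past 2-fold.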
